A study of Homo sapiens with 6 samples.

Results

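Direct YAP/TAZ target genes were examined as 10 named genes, namely CCN1, CCN2, ANKRD1, AMOTL1, AMOTL2, AJUBA, EDN1, F3, MYOF and PTPN14. They were chosen by symbol as established targets, with earlier results of these data known, and all 10 were among the 17645 genes listed and among the 11346 genes tested. The cells were labelled MDA-MB-231, a human cell line long established from triple negative breast cancer, and the series concerns the function of RNF31 in that disease. The siControl group held 3 libraries from cells given a control siRNA, and the siRNF31 group held 3 libraries from cells given siRNA against RNF31, a subunit of the linear ubiquitin ligase complex LUBAC, both 48 h after transfection. No other allele or agent is named in the labels. The sources used here do not give the sequences, number or dose of the siRNAs, so loss of RNF31 and any other action of the siRNA cannot be told apart. Nothing in the labels says that the 3 libraries of a group came from separate cultures, so the p-values describe library-to-library spread, which may be technical.

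YAP and TAZ are transcriptional coactivators that have no DNA-binding domain of their own and reach their target genes mainly through TEAD factors. The Hippo kinases LATS1 and LATS2 phosphorylate YAP and TAZ, which holds them in the cytoplasm or marks them for degradation, so that transcripts of direct targets such as CCN2 are widely read as a measure of YAP/TAZ activity. TEAD factors recognise a short element called MCAT, and several targets, among them the angiomotin-like genes and PTPN14, encode proteins that in turn restrain YAP.

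Promoter sequence is shown first because TEAD factors bind the MCAT element, GGAATG on one strand and CATTCC on the other. The part of such matches in the expression changes was not tested. The RefSeq promoter table (GRCh38.p14) holds windows from 250 bases before to 50 bases after an annotated start for 9 of the members. They make 13 windows, since EDN1 has 3 annotated starts and AMOTL2 and AJUBA have 2 each. CCN1 had no window, so its promoter was not searched. The windows of CCN2 (chr6:131951323-131951622, minus strand) and ANKRD1 (chr10:90921038-90921337, minus strand) are printed whole, 5′ to 3′ along the gene, with MCAT matches in capitals, because they held more than 1 match.
CCN2: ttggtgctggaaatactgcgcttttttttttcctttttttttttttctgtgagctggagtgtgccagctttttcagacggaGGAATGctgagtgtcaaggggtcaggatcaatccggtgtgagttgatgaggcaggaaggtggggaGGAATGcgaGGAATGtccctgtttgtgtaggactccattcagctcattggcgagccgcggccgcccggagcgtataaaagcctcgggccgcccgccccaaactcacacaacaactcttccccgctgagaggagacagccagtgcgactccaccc
ANKRD1: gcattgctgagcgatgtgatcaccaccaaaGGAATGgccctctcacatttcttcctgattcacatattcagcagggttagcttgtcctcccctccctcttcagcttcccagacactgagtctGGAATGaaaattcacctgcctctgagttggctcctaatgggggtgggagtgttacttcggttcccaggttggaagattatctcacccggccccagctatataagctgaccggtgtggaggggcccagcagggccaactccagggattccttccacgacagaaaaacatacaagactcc

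Another 4 members had a single MCAT match, each printed as the 40 bases around it with the match in capitals. These stretches lie at chr3:134374494-134374533, minus strand, for AMOTL2, at chr14:22976879-22976918, minus strand, for AJUBA, at chr6:12289868-12289907, plus strand, for EDN1, and at chr1:214551780-214551819, minus strand, for PTPN14. The F3 window had no MCAT match but held a pair of matches to the AP-1 element TGANTCA, capitalised in the last line (chr1:94541953-94541992, minus strand).
AMOTL2: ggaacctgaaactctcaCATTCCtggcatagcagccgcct
AJUBA: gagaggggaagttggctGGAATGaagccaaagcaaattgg
EDN1: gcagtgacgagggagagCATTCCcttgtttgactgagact
PTPN14: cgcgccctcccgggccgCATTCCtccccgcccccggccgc
F3: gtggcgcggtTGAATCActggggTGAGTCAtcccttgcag

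CCN2 carried 3 MCAT matches, which began 169, 104 and 95 bases before the annotated start, and ANKRD1 carried 2, which began 220 and 128 bases before it. On either strand, GGAATG occurred in 6 of the 13 windows and in 11.4% of the 13751 windows of tested genes (14.0% of all 35116 windows). Counted by gene, 6 of the 9 members had a match in any window, as did 14.9% of the 9367 tested genes with a window. A count of 3 or more matches was reached by 9 windows of tested genes, the CCN2 window among them. The AP-1 element TGANTCA, on either strand, was present in the windows of ANKRD1 (1 match) and F3 (2 matches) and in 4.99% of the windows of tested genes. The CArG box, bound by the serum response factor, was searched by its usual consensus and occurred in none of the 13 windows and in 1.17% of those of tested genes. A TATA element, TATAAA on either strand, lay 32 bases before the start of CCN2, 31 before the third start of EDN1 and 28 before that of F3, and 6.30% of the windows of tested genes held one. No searched motif overlapped another in these windows. A match is only a run of letters, and the windows hold no distal enhancers, where much TEAD binding is known to occur.

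**Figure D1:**
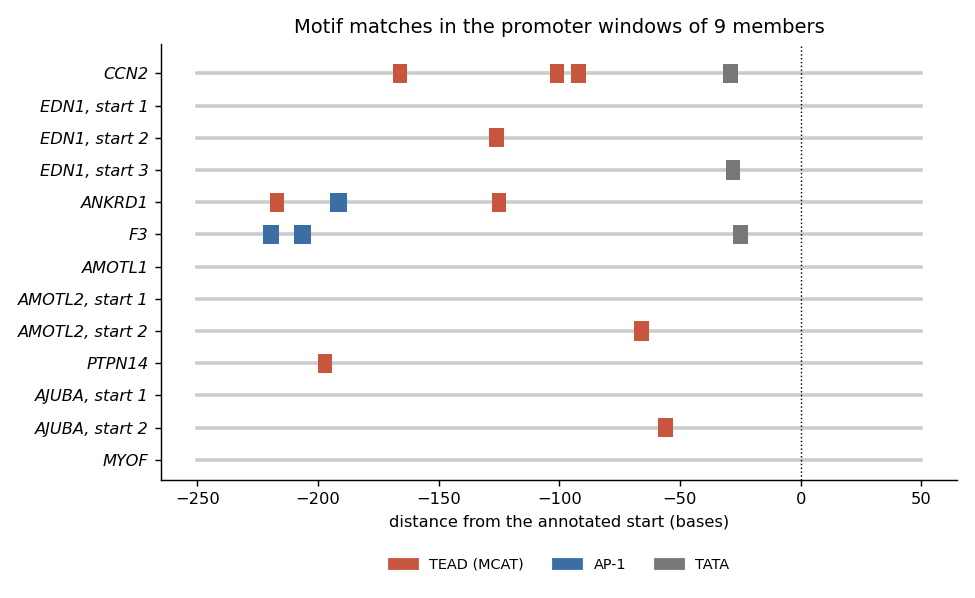
Matches to the MCAT, AP-1 and TATA elements in the 13 promoter windows of 9 members, placed by distance from the annotated start in bases (grey line, the window from 250 before to 50 after). CCN2 holds 3 MCAT matches and ANKRD1 holds 2, while the windows of AMOTL1 and MYOF hold no match. CCN1 had no window and is not shown.

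Values are FPKM, fragments scaled to transcript length and to the mapped fragments of a library, as the authors deposited them. RNF31 stood at 10.6 to 11.3 FPKM in siControl and at 1.86 to 2.12 in siRNF31, which left 18.1% of the siControl mean. The 6 mesenchymal genes fixed for the line were expressed, from S100A4 at 12.0 to 17.9 FPKM to VIM at 3027 to 3771. Of the 6, 3 (CD44, EGFR and SPARC) were lower in siRNF31, CD44 at 550 mean FPKM in siControl and 247 in siRNF31. Of the genes fixed as low in the line, EPCAM and CDH1 did not exceed 0.2 and ERBB2 stood at 6.84 to 8.47. The identity of the line was not checked beyond these values. All 5 fibroblast markers were present as well, with summed values of 1857 to 1920 in siControl and 1477 to 1520 in siRNF31. Of these 5, 4 (COL1A1, LUM, DCN and PDGFRB) were lower in siRNF31 and COL1A2 was not called. For both lists of markers, the share of all tested genes called lower was 36.5%. Endothelial markers summed to 1.5 to 1.86 FPKM in siControl and 0.84 to 0.94 in siRNF31, with PECAM1 at 1.31 to 1.69 and 0.51 to 0.66 and CDH5 at 0.01 or 0. Of 6 leukocyte markers 3 had a row: PTPRC did not exceed 0.51, CD14 stood at 1.2 to 1.3 in siControl and 0.38 to 0.63 in siRNF31, and CD68 at 33.2 to 44.4. PECAM1 and CD14 passed the filter on low values only through siControl, so their calls are not counted. The part of these markers in the results was not tested, and in bulk RNA fewer cells of a type and less RNA per cell cannot be told apart. On the second principal component, with 7.23% of the variance, siControl 1 (0.54) and siRNF31 3 (0.57) stood apart from the other libraries on the same side. The other libraries were spread as well, from -0.09 for siControl 2 to -0.48 for siControl 3.

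Most members were higher in siRNF31. Of the 10 members, 8 rose, MYOF fell and PTPN14 was not called (limma, adjusted p under 0.05 over all genes tested). Among all tested genes 26.6% were called higher and 36.5% lower. By at least 2-fold, 4 members rose (EDN1, ANKRD1, CCN2 and CCN1), against 3.53% of tested genes. The median log2 fold change was 0.64 over the members and -0.06 over all tested genes. Groups did not overlap for 9 members, 8 of them higher in siRNF31 and 1 lower, where 28.4% and 38.8% of tested genes had non-overlapping groups in these directions. Without siControl 1 and siRNF31 3, 9 members were higher and 1 lower, PTPN14 being added, and the shares of all tested genes were 29.3% and 39.7%.

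**Figure D2:**
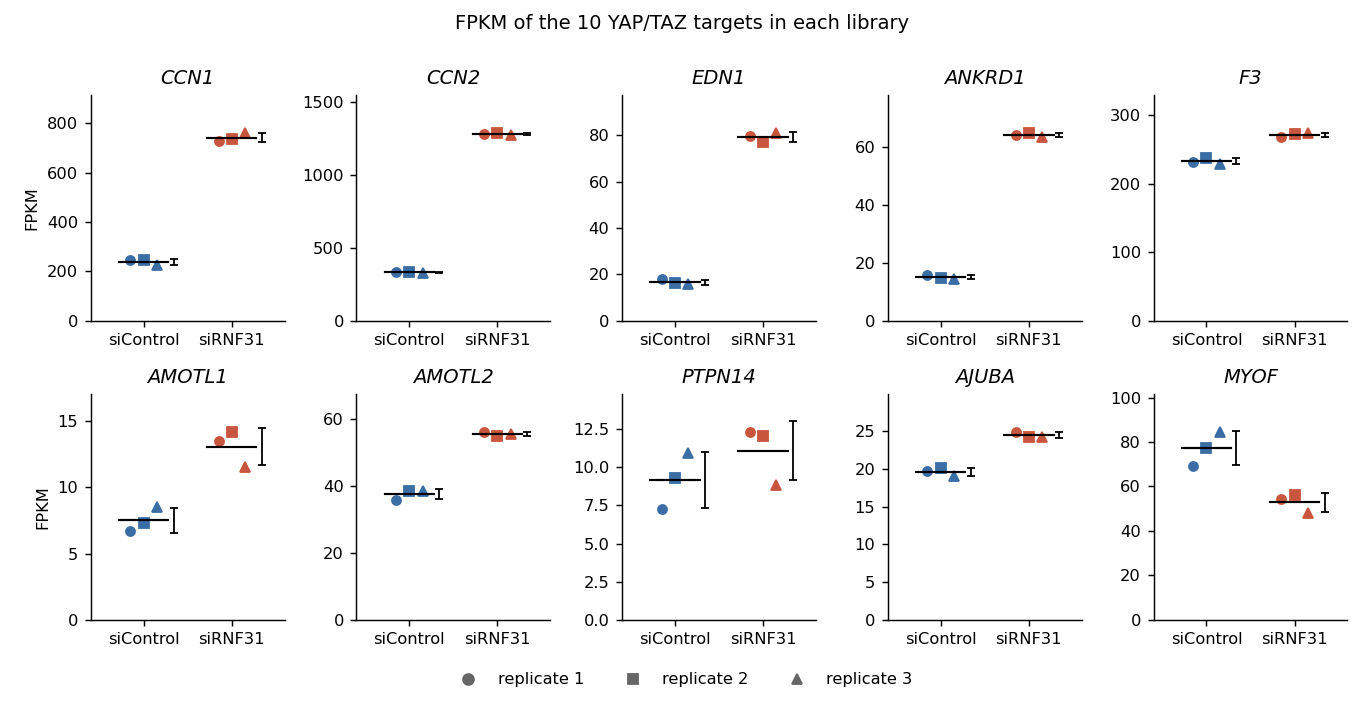
FPKM of each of the 10 members (y axis, from 0) in the 3 siControl and the 3 siRNF31 libraries, with the replicate number as the symbol, the group mean as a line and the SD as a bar. CCN1, CCN2, EDN1 and ANKRD1 are far apart between groups, F3 and AJUBA differ by a small step, and the PTPN14 groups overlap.

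CCN1 and CCN2, secreted matricellular proteins that bind integrins and growth factors and are the most used readouts of YAP/TAZ, were the most abundant members in siRNF31 and rose several-fold. CCN2, also called CTGF, measured 334, 334 and 326 FPKM in siControl 1, 2 and 3 and 1279.5, 1289.5 and 1275 in siRNF31 1, 2 and 3. Its mean went from 331 ± 4.59 to 1281 ± 7.62 (SD, n = 3 each), a ratio of 3.87 and a log2 fold change of 1.95 (standard error 0.056, limma adjusted p = 8.19e-08). The libraries of each group lay within a few percent of each other, and only 35 of the tested genes had a higher mean than CCN2 in siRNF31, against 183 in siControl. CCN1, also called CYR61, measured 246, 246 and 226 FPKM in siControl and 726, 736 and 762 with RNF31 silenced. Its mean went from 239 ± 11.7 to 742 ± 18.4, a ratio of 3.10 and a log2 fold change of 1.63 (standard error 0.062, limma adjusted p = 2.21e-07). The lowest siRNF31 library was far above the highest siControl library for both genes.

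CCN2 gained more than CCN1. The ratio of CCN2 to CCN1 in FPKM was 1.36, 1.36 and 1.44 in siControl 1, 2 and 3 and 1.76, 1.75 and 1.67 in siRNF31 1, 2 and 3. All siRNF31 ratios exceeded all siControl ratios (exact permutation test on log ratios, two-sided, p = 0.10, the smallest that 3 against 3 libraries allow; adjusted p = 0.15 over 6 ratios examined, which were chosen with the values known).

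EDN1, the precursor of the vasoconstrictor peptide endothelin-1, had the largest fold change of the members. It measured 17.9, 16.4 and 15.7 FPKM in siControl, and 79.7, 77.1 and 81.2 with RNF31 silenced. Its mean rose from 16.6 ± 1.12 to 79.3 ± 2.05 (SD, n = 3 each), a ratio of 4.77 and a log2 fold change of 2.19 (standard error 0.061, limma adjusted p = 7.02e-08), and 46 of the 11346 tested genes had a larger log2 fold change.

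ANKRD1, a nuclear ankyrin repeat protein first known from heart muscle, followed closely. Its values were 15.7, 14.6 and 14.5 FPKM in siControl, and 63.9, 64.8 and 63.3 with RNF31 silenced. On average it rose from 14.9 ± 0.687 to 64.0 ± 0.764, a ratio of 4.28 and a log2 fold change of 2.03 (standard error 0.053, limma adjusted p = 5.01e-08). The 95% interval, 1.91 to 2.15, overlapped those of EDN1 (2.05 to 2.33) and CCN2 (1.82 to 2.08), whereas that of CCN1 (1.49 to 1.77) lay below all 3.

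F3, the cell-surface tissue factor that starts blood coagulation, was already abundant and rose by a small step. It measured 232, 238 and 229 FPKM in siControl and 268, 272 and 274 with RNF31 silenced. Its mean went from 233 ± 4.34 to 271 ± 3.21 (SD, n = 3 each), an increase of 16.6% and a log2 fold change of 0.22 (standard error 0.052, limma adjusted p = 0.006). The groups did not overlap, but 25.8% of all tested genes had a larger log2 fold change.

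Among the members that act on YAP itself, AMOTL1 and AMOTL2, angiomotin-like proteins that hold YAP at junctions and in the cytoplasm, both rose. AMOTL2 measured 35.9, 38.6 and 38.5 FPKM in siControl and 56.2, 54.8 and 55.6 in siRNF31, with means of 37.6 ± 1.55 and 55.5 ± 0.698 (log2 fold change 0.55, standard error 0.053, limma adjusted p = 3.34e-05). AMOTL1 was scarcer, at 6.73, 7.27 and 8.55 FPKM in siControl and 13.5, 14.2 and 11.5 in siRNF31, with means of 7.52 ± 0.935 and 13.1 ± 1.39 (log2 fold change 0.72, standard error 0.10, limma adjusted p = 0.00031). The lowest AMOTL1 value of each group was that of the library that stood apart. The ratio of AMOTL2 to AMOTL1 ran from 4.50 to 5.33 in siControl and from 3.86 to 4.83 in siRNF31, and these ranges overlapped.

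PTPN14, a protein tyrosine phosphatase that binds YAP and restrains it, did not pass. Its values were 7.26, 9.28 and 11.0 FPKM in siControl 1, 2 and 3 and 12.3, 12.1 and 8.85 in siRNF31 1, 2 and 3 (means 9.17 ± 1.86 and 11.1 ± 1.93, log2 fold change 0.25 with a 95% interval of -0.10 to 0.61, limma adjusted p = 0.19). The groups overlapped because siRNF31 3 lay below siControl 2 and 3. Without siRNF31 3 the log2 fold change was 0.39 (limma adjusted p = 0.037). Without both siControl 1 and siRNF31 3 it was 0.25 (limma adjusted p = 0.015), and without siControl 1 alone 0.11 (adjusted p = 0.51). Over 14 alternatives the log2 fold change of PTPN14 ran from 0.11 to 0.39, and in 12 of them it was not called.

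AJUBA, a LIM domain scaffold that binds LATS kinases and limits their activity, rose slightly. It measured 19.7, 20.2 and 19.0 FPKM in siControl and 24.9, 24.2 and 24.3 in siRNF31, means of 19.6 ± 0.578 and 24.5 ± 0.385 (log2 fold change 0.31, standard error 0.051, limma adjusted p = 0.00083). The rise of 24.8% exceeded the spread between libraries, and 20.7% of tested genes had a larger log2 fold change.

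MYOF, the ferlin protein myoferlin that acts in membrane repair and fusion, was the member that fell. It measured 69.3, 77.4 and 84.6 FPKM in siControl and 54.2, 56.1 and 48.2 with RNF31 silenced. Its mean went from 77.1 ± 7.65 to 52.8 ± 4.16 (SD, n = 3 each), 68.5% of the siControl level (log2 fold change -0.54, standard error 0.087, limma adjusted p = 0.00072). Each siRNF31 library was below each siControl library.

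**Figure D3:**
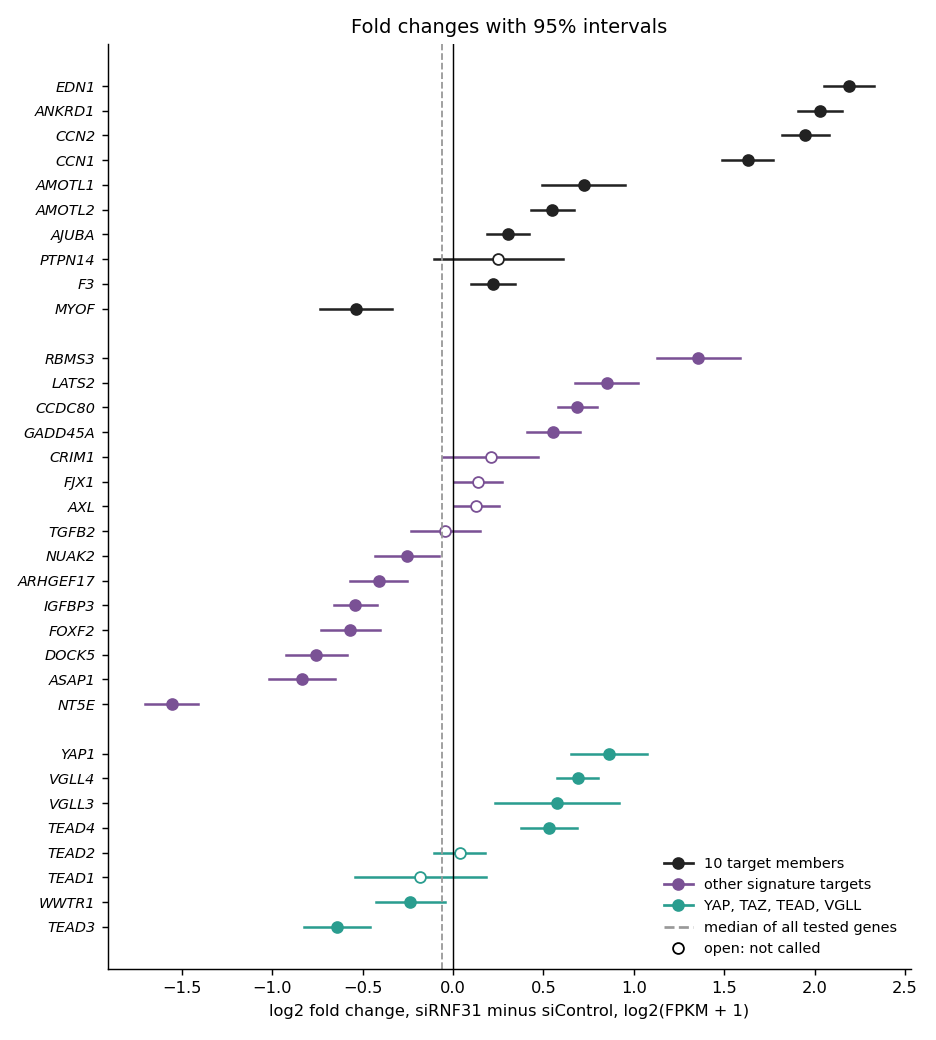
Log2 fold changes of siRNF31 against siControl on the log2(FPKM + 1) scale (x axis) with 95% intervals, for the 10 members, 15 further signature targets and 8 tested genes of YAP, TAZ, TEAD and VGLL; open circles did not pass. The members run from -0.54 for MYOF to 2.19 for EDN1, and the further targets spread to both sides of 0.

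The members with long transcripts had the widest spread within groups. In siControl 1 and siRNF31 3, PTPN14 differed from the mean of the other libraries of its group by -0.43 and -0.42 on the log2 scale, and its longest transcript in GENCODE release 29 has 12985 bases. For AMOTL1 (8970 bases) the differences were -0.20 and -0.25 and for MYOF (6719 bases) -0.22 and -0.19. For CCN2 (2339 bases) they were 0.02 and -0.01. Across 11285 tested genes, the difference correlated with log2 transcript length at r = -0.56 for siControl 1 and r = -0.51 for siRNF31 3, given as a description, since all genes share these libraries and are not independent. When a trend with GC content and length was removed from every library, 8 members were higher and 1 lower, and the shares of all tested genes were 34.5% and 37.1% in place of 26.6% and 36.5%.

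**Figure D4:**
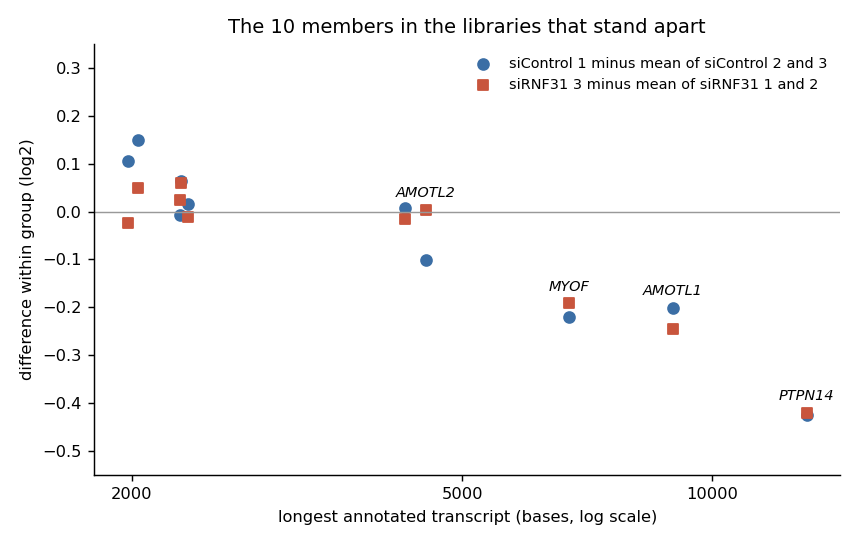
Difference of siControl 1 and of siRNF31 3 from the mean of the other libraries of the same group (y axis, log2) against the longest annotated transcript (x axis, bases, log scale) for the 10 members. PTPN14, AMOTL1 and MYOF lie furthest below 0, in both libraries.

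FPKM is a level per length, so the members can also be ordered by level. In siControl the order of mean FPKM was CCN2, CCN1, F3, MYOF, AMOTL2, AJUBA, EDN1, ANKRD1, PTPN14 and AMOTL1, and the ranges of CCN1 and F3, of EDN1 and ANKRD1, and of PTPN14 and AMOTL1 overlapped. In siRNF31 it was CCN2, CCN1, F3, EDN1, ANKRD1, AMOTL2, MYOF, AJUBA, AMOTL1 and PTPN14, with overlap between AMOTL2 and MYOF and between AMOTL1 and PTPN14. EDN1 and ANKRD1 thus moved from below AJUBA to above AMOTL2. Summed over the 10 members, FPKM ran from 972 to 1001 in siControl and from 2579 to 2604 in siRNF31. CCN1 and CCN2 made up 56.7% to 58.9% of this sum in siControl and 77.8% to 78.2% in siRNF31, and the other 8 members together went from 404 to 421 in siControl to 567 to 575 in siRNF31.

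The nearest paralogs of the members did not all move with them. Of 16 paralogs, 15 had a row and 5 were tested, of which 3 rose and 2 fell. Over all tested genes 26.6% were called higher and 36.5% lower. In the CCN family, CCN4, also called WISP1, fell from 32.9 ± 2.20 to 9.55 ± 0.424 FPKM (limma adjusted p = 2.48e-07, log2 fold change -1.68), while CCN3 rose from 11.5 ± 0.440 to 17.6 ± 0.325 (log2 fold change 0.58, adjusted p = 3.44e-05). CCN1, CCN2 and CCN3 were thus higher and CCN4 lower, and CCN5 and CCN6 did not exceed 0.34 FPKM. Of the LIM proteins related to AJUBA, WTIP rose by a log2 fold change of 0.54 (limma adjusted p = 8.11e-05) and LIMD1 fell by 0.34 on the log2 scale (adjusted p = 0.0055). PTPN21, the paralog of PTPN14, rose from 5.33 ± 0.496 to 7.60 ± 0.663 FPKM (limma adjusted p = 0.0019, log2 fold change 0.44). AMOT, the founding angiomotin, stood below 1 FPKM in every library (0.43 to 0.94), so the angiomotin family was represented at higher levels by AMOTL1 and AMOTL2.

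Further targets went both ways. Of 15 other genes from a pan-cancer YAP/TAZ signature, 4 rose, 7 fell and 4 were not called. In the same fit 26.6% of all tested genes were called higher and 36.5% lower. The median log2 fold change was -0.04 over these 15 genes and -0.06 over all tested genes. The rises were led by RBMS3, an RNA-binding protein gene (2.56 ± 0.251 to 8.14 ± 1.16 FPKM), LATS2, the Hippo kinase that YAP induces as feedback (3.21 ± 0.250 to 6.59 ± 0.471), and CCDC80 (27.3 ± 0.208 to 44.6 ± 0.354). The falls were led by NT5E, which makes extracellular adenosine, from 126 ± 3.43 to 42.1 ± 3.05 FPKM, followed by ASAP1, an Arf GTPase-activating protein gene, from 96.9 ± 8.41 to 53.8 ± 3.74, and DOCK5 from 34.5 ± 2.31 to 20.1 ± 1.49. With the GC and length trend removed, 7 of the 15 were higher and 6 lower, in a fit that called 34.5% of all tested genes higher and 37.1% lower. The members and this list were both chosen with results of these data known, and the difference between them was not tested.

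Of 8 tested genes for YAP, TAZ, TEAD and VGLL proteins, 4 rose and 2 fell, where 26.6% of all tested genes were called higher and 36.5% lower. YAP1 had FPKM of 21.4, 23.3 and 26.2 in siControl and 46.1, 46.5 and 38.8 in siRNF31 (log2 fold change 0.86, limma adjusted p = 6.64e-05), and WWTR1, the TAZ gene, 42.0, 49.3 and 51.8 against 42.2, 40.5 and 38.0 (log2 fold change -0.24, limma adjusted p = 0.035, a call lost in 8 of 14 alternatives, adjusted p up to 0.12). Among the TEAD genes, TEAD4 rose from 11.9 ± 0.630 to 17.7 ± 1.13 FPKM (limma adjusted p = 0.00018), TEAD3 fell from 9.99 ± 0.358 to 6.07 ± 0.688 (adjusted p = 0.00016), and TEAD1 (21.2 ± 4.38 and 18.5 ± 3.06, adjusted p = 0.34) and TEAD2 (12.5 ± 0.721 and 12.9 ± 0.420, adjusted p = 0.64) were not called. VGLL4, which competes with YAP for TEAD, rose by a log2 fold change of 0.69 (limma adjusted p = 5.47e-06) and VGLL3 by 0.58 (adjusted p = 0.0093). Of 16 tested Hippo kinases, scaffolds and regulators, 7 rose, 3 were called lower and 6 were not called, beside the same shares of all tested genes. LATS1 was among those not called (5.86 ± 1.28 and 6.08 ± 1.27 FPKM, limma adjusted p = 0.82). After LATS2, the largest rises were those of the kinase genes MAP4K4 (39.6 to 60.1 mean FPKM) and STK3 (23.4 to 29.9). The genes that fell were WWC2 (15.4 to 6.97) and MOB1A (43.1 to 27.6). WWC1, the other gene called lower, passed the filter only through siControl (mean FPKM 1.27 and 0.44), so its call is no support, and without it 2 of 15 fell.

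AP-1 and SRF factors, which are known to act at regulatory regions of YAP/TAZ targets, rose in 6 of 9 cases, and MRTFB fell (3.45 to 1.63 mean FPKM, limma adjusted p = 0.0011). The shares over all tested genes were 26.6% called higher and 36.5% called lower. ATF3 rose by a log2 fold change of 4.06. FOS and FOSB, also called higher (8 of 11 with them), were under 1 FPKM in every siControl library (means 0.537 and 0.53) and passed the filter only through siRNF31 (means 32.2 and 13.7). With any 1 siRNF31 library left out they no longer passed it, and 6 genes were called higher. JUNB (34.9 ± 2.31 and 34.0 ± 2.60 FPKM, limma adjusted p = 0.66) and FOSL1 (167 ± 5.47 and 185 ± 14.0, adjusted p = 0.088) were not called. Their part in the values of the members was not tested.

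Among 7673 other genes with a mean of at least 5 FPKM in both groups, likeness to CCN2 was measured as the root mean square difference of log2 profiles over the 6 libraries, each set to its siControl mean. The nearest were ANKRD1 (0.064), CDKN1A (0.064), C3orf52 (0.070), DUSP5 (0.074) and CCNE1 (0.074). For CCN1 they were IRF1 (0.036), TUBB3 (0.040), TRIB1 (0.040), SLC9A3R1 (0.046) and KHDRBS3 (0.047). One other member, ANKRD1, was thus among the genes nearest to CCN2 and none among those nearest to CCN1.

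**Figure D5:**
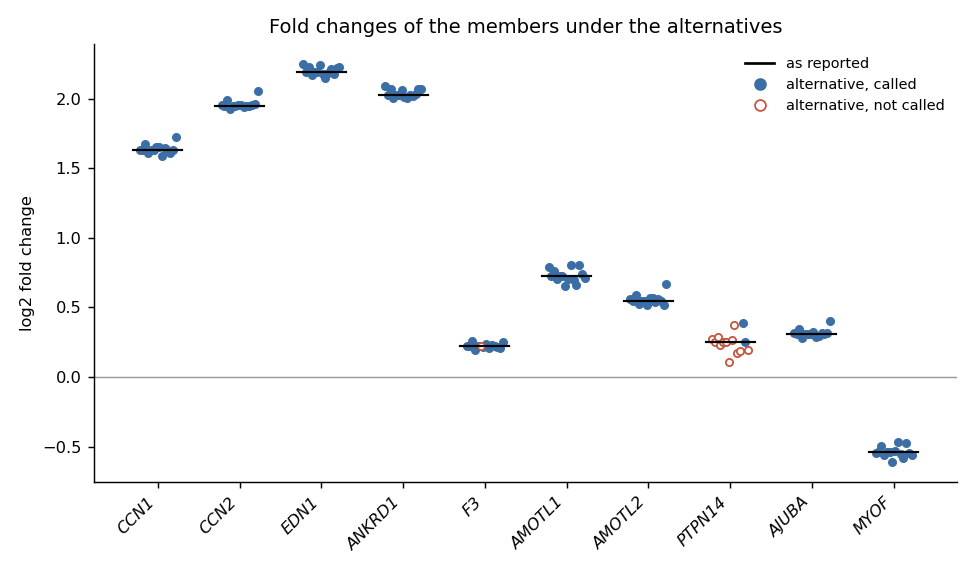
Log2 fold changes (y axis) of the 10 members as reported (line) and under 14 alternative settings (points, open where not called). The direction was the same in every alternative shown for each member, and the open points belong to PTPN14 and, in 1 setting, to F3.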

How the data were processed

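RNA of the 6 libraries was made from Trizol lysates with BGISEQ-500 protocols, per the labels' protocols. The authors deposited FPKM values, 1 table per library with 2 decimals, per the file headers; aligner, quantification program, build and annotation are not stated there or in the labels. FPKM is relative, so a gene that takes more fragments lowers all others, and depth is unknown because reads could not be recovered from rounded values; no counting interval is given. Column sums (421755 to 463457) are not depths.

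Values were transformed to log2(FPKM + 1), and the 11346 genes with at least 1 FPKM in at least 3 of 6 libraries were fitted in R 4.3.3 by limma 3.58.1 (intensity trend, robust moderation, no covariate). Two-sided p-values received Benjamini-Hochberg adjustment across the tested genes, with calls made below an adjusted p of 0.05. Fold changes on the log2(FPKM + 1) scale understate changes of low genes. Ratios are ratios of group means. The steps were tested on simulated data.

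The members and lists were chosen with earlier results of these data known. Named were the members, RNF31, YAP1, WWTR1, TEAD1 to TEAD4, LATS1, LATS2, up to 3 called genes per direction and list, and the 5 genes nearest to CCN2 and to CCN1; marker genes and other list members named beside a count were chosen after their values were seen. Transcript length and GC content came from GENCODE release 29 (GRCh38), matched by Gene ID for 99.5% of tested genes, and names and promoters from RefSeq (GRCh38.p14). Tables and plots were made in Python 3.11.15 (scipy 1.17.1, pandas 2.3.3, numpy 2.4.6, matplotlib 3.10.9). In all, 12 alternatives were fixed at the start and 2 were added after the data were seen.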

Additional observations from a re-analysis of the deposited data

How the results depend on the processing

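Under all 14 alternatives, each member kept its direction, and the calls changed for F3 and PTPN14. The count of members called higher ran from 8 to 9 and the count called lower was 1 when each library was left out in turn. Over the same 6 fits, all genes called higher numbered 2426 to 2956 and lower 3450 to 4118, against 3022 and 4141. The labels do not say whether the replicate numbers pair the libraries. Deviations from group means correlated at -0.57, 0.12 and -0.63 between libraries numbered 1, 2 and 3, and siControl 1 correlated best with siRNF31 3 (0.68). These values cannot decide on pairing, because siControl 1 and siRNF31 3 shared a difference linked to transcript length. With the replicate number as a block, 7 members were called higher and 1 lower, F3 no longer passing (adjusted p = 0.065), among 2480 genes higher and 3497 lower. Of the lists, the count of YAP, TAZ, TEAD and VGLL genes called lower was 1 in place of 2 with no filter, with median of ratios scaling, with scaling to a common sum, with the replicate block and when replicate 2 or 3 of either group was left out (range over left-out libraries 1 to 2), and 3 without siControl 1 and siRNF31 3 together. With no filter, 4 paralogs were lower in place of 2 and 4 higher in place of 3, among 4285 genes lower and 3443 higher of 17630. That fit also held the 10 paralogs that were below 1 FPKM in every library. With the GC and length trend removed, 7 further targets were higher in place of 4, among 3889 genes higher and 4189 lower of 11285. The count of 1 for YAP, TAZ, TEAD and VGLL genes arose in the same 8 settings in which WWTR1 lost its call. Otherwise the causes of these shifts were not tested. Leaving out siControl 1 and siRNF31 3 together and removing the GC and length trend were chosen after seeing the data. Depth is unknown, so no limit from counting can be given for the scarcer members, AMOTL1 and PTPN14.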

Other observations

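Of 4 tested partners of F3, 1 was called higher and 3 lower, where 26.6% of all tested genes were called higher and 36.5% lower. TFPI, the main inhibitor of the complex of tissue factor and factor VII, rose from 57.3 ± 1.39 to 126 ± 3.34 FPKM (SD, n = 3 each; limma adjusted p = 5.15e-07, log2 fold change 1.12). Because TFPI rose more than F3, the ratio of F3 to TFPI in FPKM went from 4.14, 4.16 and 3.89 in siControl to 2.19, 2.13 and 2.14 in siRNF31 (exact permutation test, two-sided, p = 0.10, the smallest that 3 against 3 allow; adjusted p = 0.15 over 6 ratios chosen with the values known). The protease-activated receptor genes F2R, F2RL1 and F2RL2, of which F2RL1 encodes the receptor cleaved by the tissue factor complex, all fell. F2RL1 went from 19.5 ± 1.36 to 8.76 ± 0.225 FPKM (limma adjusted p = 2.49e-06, log2 fold change -1.07), F2R from 10.2 ± 0.452 to 6.64 ± 0.430 and F2RL2 from 10.7 ± 0.110 to 7.82 ± 0.484. The other 5 genes of that list, F7, F10, F2, TFPI2 and F2RL3, did not exceed 0.53 FPKM in any library and were not tested.

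EDN1 rose, and ECE1 was not called. ECE1, the converting enzyme that cuts the precursor to endothelin-1, measured 56.2 ± 0.915 FPKM in siControl and 52.6 ± 1.15 in siRNF31 (log2 fold change -0.09, limma adjusted p = 0.13). The ratio of EDN1 to ECE1 was 0.31, 0.30 and 0.28 in siControl and 1.54, 1.48 and 1.51 in siRNF31 (exact permutation test, two-sided, p = 0.10, the smallest possible; adjusted p = 0.15). The endothelin receptor genes EDNRA and EDNRB did not exceed 0.9 FPKM in any library, and EDN2 was listed at 0.76 to 0.86 in siControl and at 0 to 0.09 in siRNF31, below the level tested. Protein levels were not measured.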
